A study of Mus musculus with 16 samples.

Results

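The T-box, Sox, Gata and bHLH lineage regulators are 40 genes for transcription factors that direct cells of the embryo into their lineages. They were chosen by family and by name, with earlier results of these data known. They are 12 T-box genes, 10 Sox genes, 4 Gata genes and 14 genes of the basic helix-loop-helix (bHLH) class. They stand among 21938 protein-coding genes of the GENCODE annotation of mm10. All 40 were found in that annotation. For each gene, fragments whose midpoint lay within 1 kb of the annotated start, called the promoter here, and over the whole gene, called the gene body, were counted in 16 libraries.

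The libraries were made by AutoCUT&RUN, in which an antibody directs micrococcal nuclease to a histone mark in intact nuclei and the DNA that the enzyme releases is sequenced from both ends. The antibodies were against H3K4me3, H3K27me3 and H3K9me3, and IgG, which has no target in chromatin, served as the control. The KO group carried mutations in all 3 genes of the histone variant H2A.B on the X chromosome (hemizygous males), and the WT group were their male siblings. Each of the 8 combinations of target and genotype had 2 libraries, 1 from each of 2 sibling pairs of 2-month-old, non-mated males. The KO strain descends from 1 founder made by CRISPR/Cas9 in B6;SJLF1/J zygotes and was backcrossed to C57BL/6J, so that the KO libraries stand for 1 set of alleles. All animals gave haploid germ cells, sorted live from adult testis by DNA content with Hoechst and propidium iodide, and no other cell type was profiled. Replicates 1 and 2 are read as the pairs. In the labels each replicate number also goes with its own library code for all targets and both genotypes. The animals of a pair and what that code marks therefore cannot be told apart, and a p-value below measures the spread over both. The tests (limma-voom) draw the variance of a gene in part or in whole from all genes of the fit. A small p-value is thus not evidence from the replicates of that gene alone. The mutated genes themselves were not checked here.

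T-box, Sox, Gata and bHLH factors bind DNA through a domain shared within each family, and most of their genes are off outside a narrow set of embryonic or adult tissues. Genes of this kind are textbook targets of the Polycomb proteins: Polycomb repressive complex 2 places H3K27me3 on them, often over CpG-rich starts and in domains that run far past the start. H3K4me3 marks the starts of active genes, and in embryonic stem cells and the germ line many developmental genes carry it together with H3K27me3, a state called bivalent. H3K9me3 is the mark of constitutive heterochromatin and is not typical of such promoters.

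A library held from 159611 distinct fragments (IgG, WT replicate 2) to 6746382 (H3K9me3, KO replicate 1), and the H3K27me3 libraries were the most uneven, with 3806026 and 711758 in KO and 2891646 and 200457 in WT. A level below is in CPM, the number of distinct fragments at a promoter for each 1000000 distinct fragments of the library, in a window of 2001 bp for all genes. In H3K27me3, 1 fragment was worth 0.263 CPM in the deepest library and 4.99 in the shallowest, where a count of 0 allows a level of up to 15.0 (3 fragments, counting error only). In the sorted cells, 19 of 20 spermatid marker genes, all tested, had more H3K4me3 than IgG at their promoters, where 73.7% of all genes tested did, and neither of the 2 with enough H3K27me3 fragments for a test had more of that mark, where 64.7% did. Markers of other testis cells with more H3K4me3 than IgG numbered 3 of 12 for spermatogonia (5 tested) and 2 of 10 for Sertoli cells (3 tested), and 0 of 8 each for Leydig cells, peritubular cells and macrophages, of which 1 gene in all was tested. More H3K27me3 than IgG was found at 9 of 9 tested for spermatogonia, 6 of 7 for Sertoli cells, 4 of 4 for Leydig cells, 4 of 6 for peritubular cells and 1 of 3 for macrophages. With so few tested, these counts do not measure purity. Since each library pools many cells, fewer cells with a mark and less of the mark in each cell cannot be told apart.

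The promoter sequences of 4 of the genes show how unlike these starts are. Sox14 had the highest H3K27me3 of the Sox genes, Tbx1 carried both H3K27me3 and H3K4me3, and Tbx6 and Neurod4 had the lowest H3K27me3 of their families. The 250 bases before each start are given from RefSeq (GRCm38.p6), 5′ to 3′ on the gene's strand, with each CG in capitals.
Sox14, chr9:99876171-99876420, minus strand: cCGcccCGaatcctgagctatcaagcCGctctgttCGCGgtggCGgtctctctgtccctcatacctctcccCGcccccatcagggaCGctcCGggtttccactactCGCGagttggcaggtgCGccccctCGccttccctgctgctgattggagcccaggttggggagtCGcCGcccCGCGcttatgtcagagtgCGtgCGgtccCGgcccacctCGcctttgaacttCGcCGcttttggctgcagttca
Tbx1, chr16:18590672-18590921, minus strand: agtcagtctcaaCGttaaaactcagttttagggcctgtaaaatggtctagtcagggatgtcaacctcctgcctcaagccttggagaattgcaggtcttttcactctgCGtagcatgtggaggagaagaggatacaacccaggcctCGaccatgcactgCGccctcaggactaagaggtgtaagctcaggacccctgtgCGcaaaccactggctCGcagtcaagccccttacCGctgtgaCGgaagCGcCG
Tbx6, chr7:126781233-126781482, plus strand: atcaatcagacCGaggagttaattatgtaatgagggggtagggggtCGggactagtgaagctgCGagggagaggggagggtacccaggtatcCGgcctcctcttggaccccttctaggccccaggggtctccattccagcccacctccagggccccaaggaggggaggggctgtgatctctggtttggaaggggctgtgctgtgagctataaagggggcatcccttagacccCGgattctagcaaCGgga
Neurod4, chr10:130280255-130280504, minus strand: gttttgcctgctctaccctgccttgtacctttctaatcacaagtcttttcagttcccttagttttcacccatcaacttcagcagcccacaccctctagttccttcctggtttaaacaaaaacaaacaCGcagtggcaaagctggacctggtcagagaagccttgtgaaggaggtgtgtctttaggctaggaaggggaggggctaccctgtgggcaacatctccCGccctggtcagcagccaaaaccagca
The CG dinucleotide, which reads the same on both strands, occurs 23 times in Sox14, 10 times in Tbx1, 6 times in Tbx6 and 2 times in Neurod4. Over 27025 RefSeq promoters of the same length, 91.7% held at least 1 CG and the median was 6. RefSeq entries were matched by symbol for 28 of the 40 genes, and 24 of these began within 200 bp of the GENCODE start.

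H3K27me3 was high at most of these promoters. Their median level was 45.6 and 30.2 CPM in the KO libraries and 40.5 and 34.9 in the WT libraries, where the median of all protein-coding promoters was 0.263, 0, 0.346 and 0. The mean over the 40 genes was 5.23 to 7.16 times the mean over all genes. The 40 windows together took from 0.124% of the fragments of a library (KO replicate 2; 95% Wilson interval 0.116% to 0.132%) to 0.172% (KO replicate 1; 0.168% to 0.176%). In the IgG libraries the windows took 0.000616% to 0.0048%, which was 1 to 13 fragments.

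Tested with limma-voom across all genes, 36 of the 40 had more H3K27me3 than IgG, and all 40 held the 10 fragments required for a test. Among the 6706 genes tested, 64.7% were called, and over all protein-coding genes 19.8% were. Of the members, 33 stood in the top 10% of all genes by mean H3K27me3, 26 in the top 5% and 5 in the top 1%. By family, 11 of 12 T-box, 8 of 10 Sox, 4 of 4 Gata and 13 of 14 bHLH genes were called. Tbx6, Sox11, Sox18 and Neurod4 were not. A fold over IgG is a lower bound wherever IgG held no fragment, which was so for 25 of the 40 genes, and it was computed against 3 fragments over the pooled IgG libraries.

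**Figure D1:**
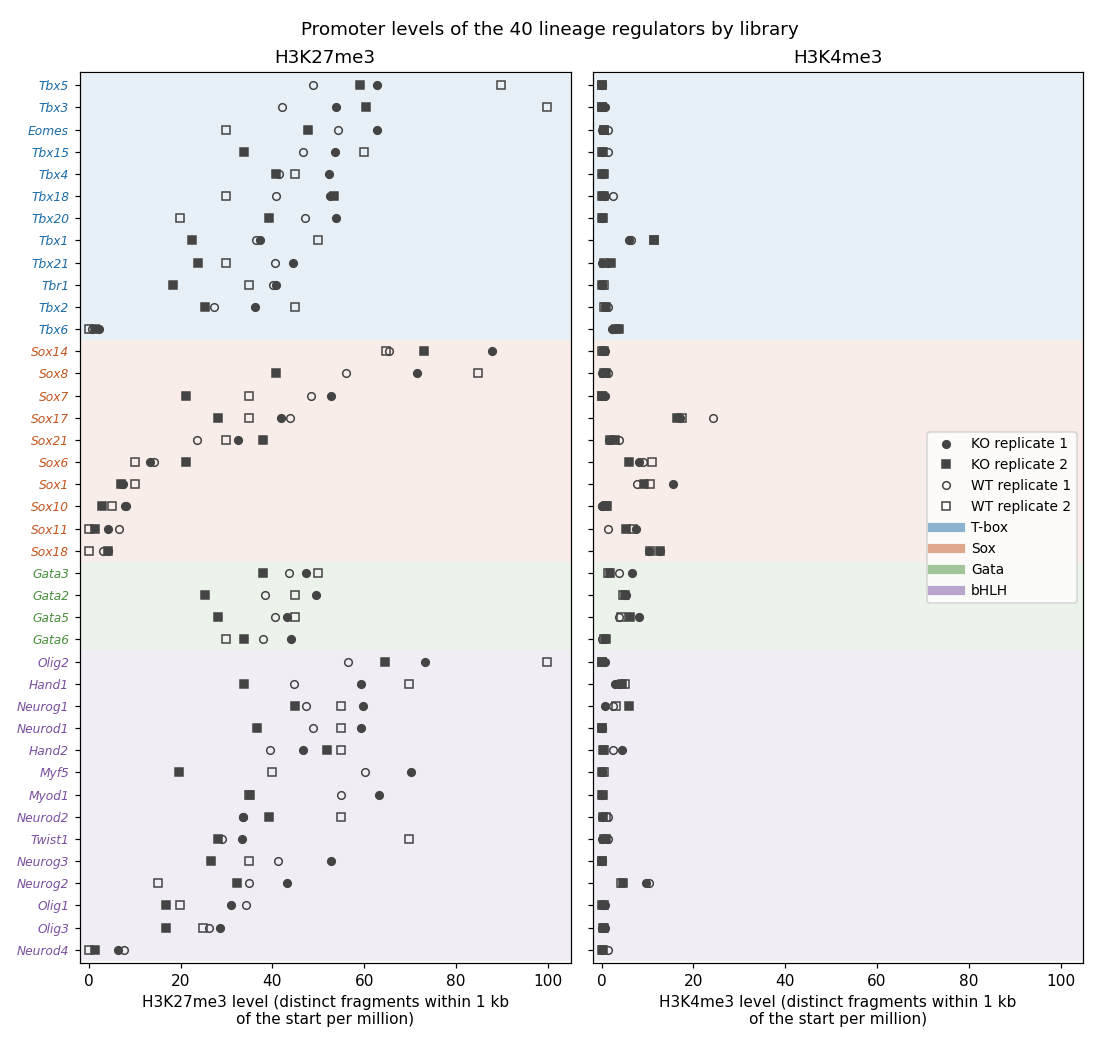
Promoter levels of H3K27me3 (left) and H3K4me3 (right) for each of the 40 genes, in CPM (fragments for each 1000000 of the library), with 1 point per library (filled, KO; open, WT; circles, replicate 1; squares, replicate 2) and genes ordered within families by mean H3K27me3. Most genes lie between 20 and 80 for H3K27me3 and near 0 for H3K4me3, on the same axis.

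Among the T-box genes, the limb and heart regulators Tbx5 and Tbx3 had the most H3K27me3. Tbx5 (chr5:119832668-119885219), needed for the forelimb and the heart chambers, had levels of 62.8, 59.0, 48.8 and 89.8 CPM in KO replicates 1 and 2 and WT replicates 1 and 2, the order used below. Tbx3 (chr5:119670669-119684724), a repressor that acts in the mammary gland, limb and cardiac conduction system, had 53.9, 60.4, 42.2 and 99.8. In both genes the highest value came from the shallowest library, WT replicate 2, with 18 and 20 fragments, and KO and WT overlapped. Their levels were 15.2-fold (95% interval 5.18 to 74.2) and at least 13.5-fold that of IgG in pooled libraries. Tbx6 (chr7:126781483-126785560), which specifies paraxial mesoderm, stood apart from its family with 2.10, 1.41, 0.692 and 0, or 8, 1, 2 and 0 fragments. The other 9 T-box genes, among them the mesendoderm regulator Eomes, the T-cell regulator Tbx21 and the cortical neuron regulator Tbr1, had mean levels from 33.4 (Tbx2) to 48.7 (Eomes), so the gap to Tbx6 was wider than the range of the rest.

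The Sox genes spanned mean levels from 2.88 to 72.8. Sox14 (chr9:99874106-99876170), a gene of interneurons, had levels of 87.8, 73.1, 65.4 and 64.8, the second highest mean of the 40 genes and rank 30 among all protein-coding genes. Both KO values lay above both WT values, but the difference (log2 0.27 ± 0.59 (SE), limma-voom) was not called. KO and WT did not overlap at 14.9% of all genes tested, with KO above WT at 5.5% and below at 9.41%. Sox8 (chr17:25565892-25570686), which acts with Sox9 in the testis and neural crest, had 71.5, 40.7, 56.0 and 84.8. Sox14 and Sox8 were at 0 fragments in all 4 IgG libraries, which sets their pooled levels at least 20.4-fold and at least 16.6-fold above IgG. At the other end, Sox18 (chr2:181669836-181671640), a regulator of lymphatic and blood vessel endothelium, had 4.2, 4.21, 3.11 and 0, Sox11, a factor of immature neurons, had a mean of 3.04 ± 2.93 (SD, n = 4), Sox10, the neural crest and glial factor, had 5.97 ± 2.56 (SD, n = 4), and Sox1, a marker of the neural plate, had 7.36, 7.03, 6.92 and 9.98. Sox10 and Sox1 were called above IgG (adjusted p = 0.0108 and 0.0440, limma-voom), while Sox18 and Sox11 were not (adjusted p = 0.244 and 0.993). The Sox family median was between 18.9 and 23 CPM in the 4 libraries, below the medians of the other families, which ran from 30.9 to 52.4.

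The means of the 4 Gata genes lay between 36.5 and 44.7. Gata3 (chr2:9857078-9890034), which directs T helper cells, trophectoderm and mammary epithelium, had 47.3, 37.9, 43.6 and 49.9. Gata2 (chr6:88193891-88207032), needed for blood stem cells, had 49.4, 25.3, 38.4 and 44.9, and Gata6, a factor of primitive endoderm and heart, had the lowest mean of the family with 44.1, 33.7, 38.0 and 29.9. The ranges of the 4 genes overlapped one another and KO overlapped WT. The promoter window of Gata3 is shared with the gene 9230102O04Rik, whose start lies 494 bp away, and fragments there cannot be assigned to one of the genes.

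Among the bHLH genes, Olig2 (chr16:91225457-91228677), the factor of motor neurons and oligodendrocytes, had the highest H3K27me3 of all 40 genes, with 73.3, 64.6, 56.4 and 99.8 and at least 17.6-fold the level of IgG. Its neighbor Olig1, whose start lies 44315 bp away, had a mean of 25.5 ± 8.41 (SD, n = 4). Hand1 (chr11:57828705-57832818), needed for the placenta and the left ventricle, had 59.4, 33.7, 44.6 and 69.8. The muscle regulators Myod1 and Myf5 had means of 47.1 ± 14.3 (SD, n = 4) and 47.5 ± 22.4 (SD, n = 4), and the proneural genes Neurog1, Neurog2 and Neurog3 had 51.7, 31.3 and 38.9. Neurod4 (chr10:130268152-130280240), which acts in late neuronal differentiation, was the exception with 6.31, 1.41, 7.61 and 0 and was not called (adjusted p = 0.321, limma-voom), while its paralogs Neurod1, with 59.4, 36.5, 48.8 and 54.9, and Neurod2, with a mean of 40.4, were. The start of Neurod1 lies 34 bp from that of Cerkl, so this window belongs to both.

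H3K27me3 was not confined to the start. In 100-bp bins over the 40 genes it stood at 1.93 CPM per bin in the kilobase before the start and 1.83 in the kilobase after it, and it was still 0.646 from 4 to 5 kb before and 1.11 from 4 to 5 kb after. The highest bin was centered 350 bp before the start. H3K4me3 reached 0.182 in its highest bin, 150 bp after the start, against 0.0984 and 0.107 from 4 to 5 kb on the 2 sides.

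**Figure D2:**
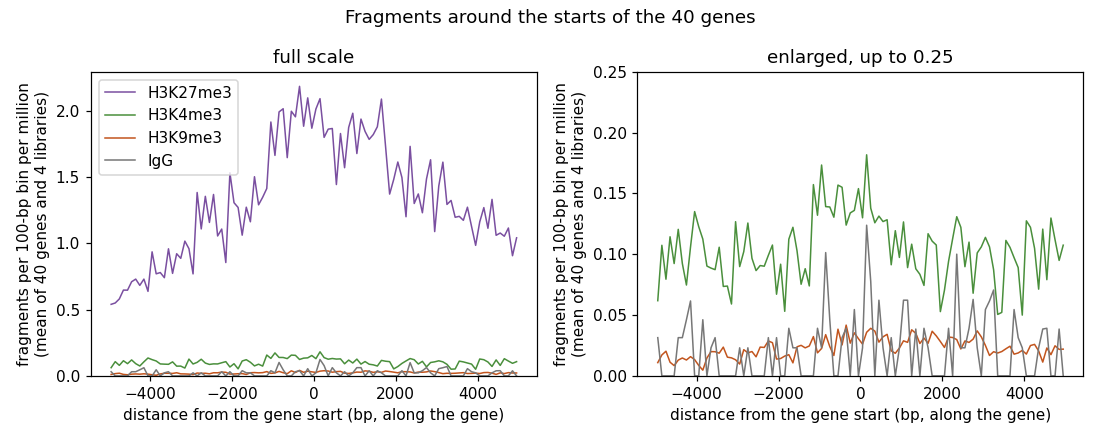
Level in CPM per 100-bp bin, averaged over the 40 genes and the 4 libraries of each target, against the distance from the gene start in bp (negative values lie upstream). H3K27me3 (left) forms a plateau of about 2 that falls slowly on both sides, and the enlarged scale (right) shows H3K4me3 at 0.05 to 0.18 and H3K9me3 and IgG below it at most positions.

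Counted on both sides in CPM per kb, the median member had an H3K27me3 level of 19.7 within 1 kb of the start, 10.5 from 1 to 5 kb, 6.41 from 5 to 10 kb, 0.636 from 10 to 20 kb and 0.314 from 20 to 50 kb. The means over all genes were 2.81 to 3.71 within 1 kb and 0.634 to 0.836 from 10 to 20 kb. The mean over the 40 genes from 10 to 20 kb was 2.38 and 2.11 in KO and 2.09 and 3.06 in WT, above the mean over all genes in each library. The reach differed between genes. From 10 to 20 kb, Tbx3 still had 19.5, Tbx15, a factor of limb and skeletal muscle, 12.4 and Gata3 11.6, whereas Gata6 had 0.0872 and Tbr1 0.131. These genes were named after their values were seen. At 6 genes (Sox1, Sox21, Neurog2, Tbx2, Tbx18 and Gata6) the level from 1 to 5 kb exceeded that within 1 kb. Sox1 was the widest case, with 3.91 within 1 kb, 16.4 from 1 to 5 kb and 19.1 from 5 to 10 kb, so that a window at its start holds little of the H3K27me3 around it.

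**Figure D3:**
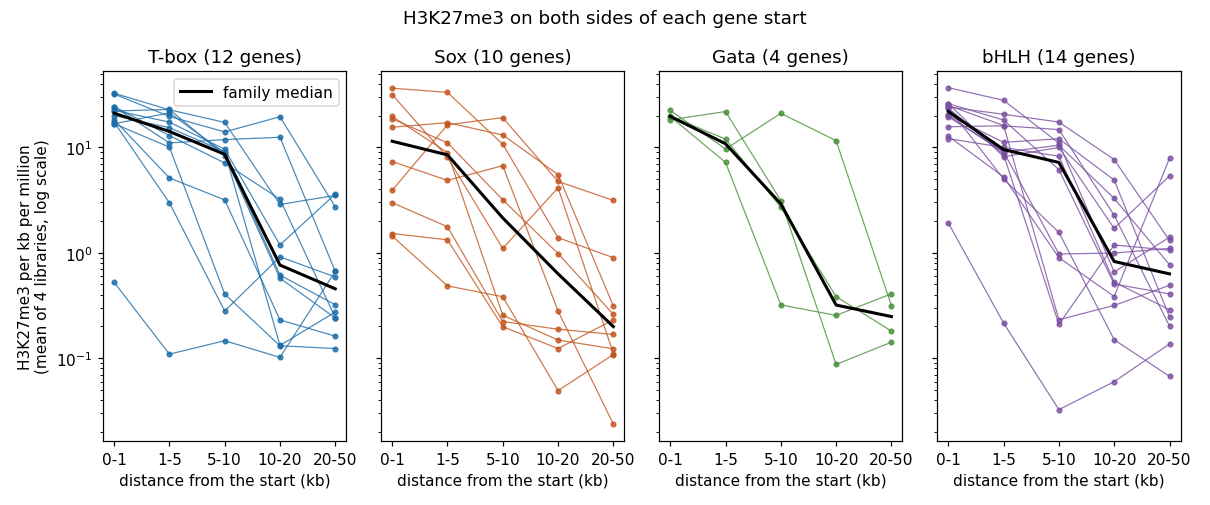
H3K27me3 in CPM per kb (mean of 4 libraries, log axis) in 5 distance classes on both sides of the start, with a line for each gene and a heavy line for the family median. Family medians fall from between 11.4 and 21.9 within 1 kb to between 0.199 and 0.631 from 20 to 50 kb, where the window of Olig1 also takes in Olig2.

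H3K4me3 was low at most of the 40 promoters. Their median level was 0.742 and 0.736 in KO and 1.27 and 0.458 in WT, against medians over all genes of 3.71, 2.95, 3.82 and 2.75, and 0 of the 40 were in the top 10% of all genes. Only 16 members held the 10 fragments required over the H3K4me3 and IgG libraries, and 9 of those had more H3K4me3 than IgG (limma-voom). Of the 12886 genes tested, 73.7% were called. The other 24 members had too few fragments for a test, so the count of 9 describes the members with the most signal and no absence of H3K4me3 was tested.

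The 9 called genes came from all families: Sox17, Sox18, Sox1, Sox6, Tbx1, Gata2, Gata5, Neurog2 and Hand1. Sox17 (chr1:4490931-4497354), the endoderm and endothelial factor, had by far the most, with 17.1, 16.5, 24.2 and 17.4 (pooled level 14.0-fold (95% interval 2.46 to 555) that of IgG, limma-voom adjusted p = 2.78e-04). Sox18 followed with 10.4, 12.7, 12.8 and 10.6 (pooled level at least 3.08-fold that of IgG, limma-voom adjusted p = 1.81e-04). Sox17, Sox18 and Sox7, whose mean was 0.185 ± 0.371 (SD, n = 4), form a group of close paralogs that act in blood vessels, and Sox7 was the lowest Sox gene for H3K4me3 with 1, 0, 0 and 0 fragments. At Sox17 both WT values lay above both KO values, with limma-voom adjusted p = 0.999 for KO against WT, and at Sox18 the groups overlapped.

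Tbx1 (chr16:18580979-18590671), the pharyngeal gene lost in DiGeorge syndrome, was the T-box gene with the most H3K4me3, at 5.94, 11.5, 6.38 and 11.5, and the next, Tbx6, had 2.23, 3.83, 2.55 and 3.21 and was not called (adjusted p = 0.422, limma-voom). Tbx5 had 0 fragments in all 4 H3K4me3 libraries. Gata5, a factor of the endocardium and gut, had 8.16, 6.19, 3.83 and 4.13 and Gata2 had 5.19, 5.01, 5.10 and 4.58, while Gata6 had 1, 3, 0 and 1 fragments. Gata5 and Gata2 were called and overlapped in level. Neurog2 had 9.65, 4.71, 10.2 and 4.13 and Hand1 2.97, 4.42, 3.83 and 5.04, and Neurod1 and Neurog3 had 0 fragments in all 4 libraries. A count of 0 allows levels of up to 0.884 CPM in the deepest H3K4me3 library and 3.82 in the shallowest. The window of Sox6, called above IgG, is shared with 1110004F10Rik, whose start lies 601 bp away.

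Direct comparison of the marks placed H3K27me3 above H3K4me3 at 35 of the 40 promoters in limma-voom, where 29% of 16648 genes were called in this direction, and H3K4me3 above H3K27me3 at 1, where 59.7% of genes were called. The members' median log2 difference was 5.28 and the median over all genes was -3.11. Each level is a share of the library of its own antibody, so these differences and ratios do not compare amounts of the 2 marks. When libraries were scaled by median-of-ratios factors in place of library totals, the median of all genes moved to -5.22 and that of the members to 3.17. The split then became 27 to 6 for the members and 3128 to 11344 for all genes, against 4821 to 9945 for all genes with library totals. The 6 genes then higher in H3K4me3 were Sox17, Sox18, Sox6, Sox1, Sox11 and Tbx6. When every deposited fragment was counted, repeats included, 0 members and 9 genes of 18722 were called, while 36 members had a positive difference under either count and the members' median SE rose from 0.732 to 5.28.

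The widest differences were at Tbx5 (log2 7.72 ± 0.72 (SE), limma-voom adjusted p = 2.27e-23), Olig2 (log2 7.44 ± 0.73 (SE), limma-voom adjusted p = 1.16e-21) and Neurod1 (log2 7.36 ± 0.73 (SE), limma-voom adjusted p = 1.54e-21). Their H3K4me3 counts were 0, 1 and 0 fragments over the 4 libraries against 440, 508 and 404 for H3K27me3, so the fitted differences depend on the 0.5 added to each count. Their p-values rest on a variance shared over all genes, not on the spread at these genes. In pooled levels, H3K27me3 at Neurod1 was at least 136-fold the H3K4me3 level. The lowest differences were at Sox18 (log2 -1.64 ± 0.56 (SE), limma-voom adjusted p = 0.00388), Tbx6 (log2 -0.89 ± 0.82 (SE), limma-voom adjusted p = 0.293) and Sox1 (log2 -0.48 ± 0.46 (SE), limma-voom adjusted p = 0.320), and Sox18 alone was called higher in H3K4me3. Its pooled H3K27me3 level was 0.315-fold (95% interval 0.199 to 0.486) that of H3K4me3. By family, 11 of 12 T-box, 6 of 10 Sox, 4 of 4 Gata and 14 of 14 bHLH genes were called higher in H3K27me3.

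Set side by side, the calls against IgG put 8 promoters above IgG for both marks (Tbx1, Sox1, Sox6, Sox17, Gata2, Gata5, Neurog2 and Hand1), 28 above IgG for H3K27me3 without such a call for H3K4me3, 1 (Sox18) for H3K4me3 without H3K27me3, and 3 (Tbx6, Sox11 and Neurod4) for neither. The H3K4me3 calls behind this fell from 9 of 16 tested to 3 of 14 in windows of 500 bp, so that at most 3 promoters could hold both calls there. Over all genes the H3K4me3 calls fell from 9503 of 12886 tested to 7137 of 11792. At Gata2, Gata5, Neurog2 and Hand1 the H3K4me3 calls were set against 0 IgG fragments. Over all protein-coding genes, 2.51% had both calls, 17.3% had H3K27me3 without H3K4me3 and 40.8% had H3K4me3 without H3K27me3. Among the 8, H3K27me3 means ran from 7.82 to 51.9 CPM and H3K4me3 means from 4.06 to 18.8. The pooled H3K27me3 level was 3.59-fold (95% interval 2.78 to 4.69) the H3K4me3 level at Tbx1, 2.33-fold (95% interval 1.90 to 2.87) at Sox17 and 0.688-fold (95% interval 0.479 to 0.981) at Sox1. These pooled intervals cover counting error only, and the ratios rest on library totals. With median-of-ratios scaling Sox17 was called higher in H3K4me3 (log2 -1.07 for H3K27me3 against H3K4me3, limma-voom adjusted p = 0.00363). Whether both marks lay on the same molecules or in the same cells was not tested.

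**Figure D4:**
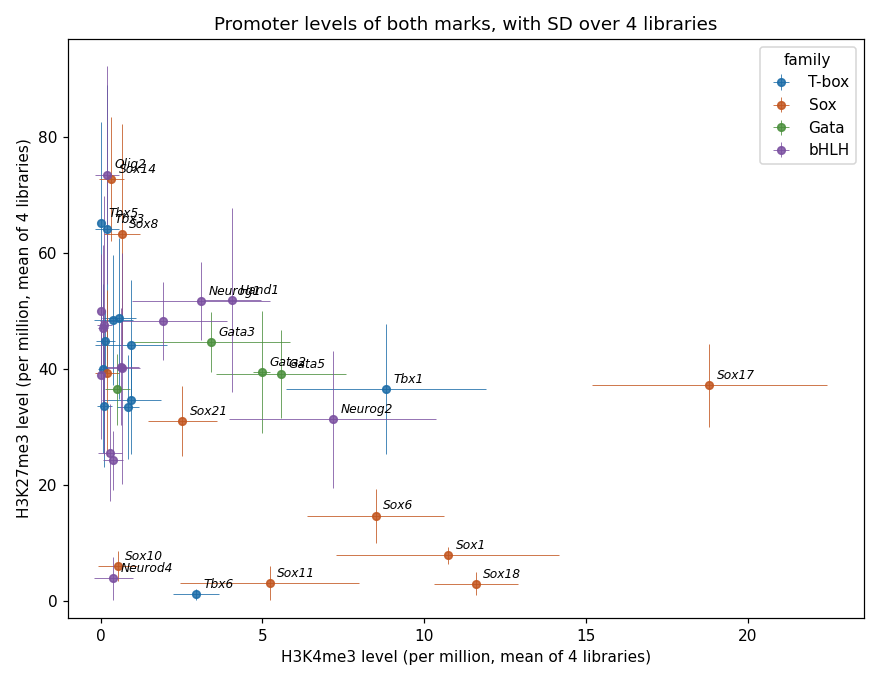
Mean H3K27me3 level (vertical) against mean H3K4me3 level (horizontal) at the 40 promoters, both in CPM (fragments for each 1000000 of the library) with the SD over 4 libraries, colored by family and with the genes at the edges named. Most genes line the vertical axis, Sox17 lies farthest to the right at 18.8, and Sox18, Sox1, Sox11 and Tbx6 lie along the bottom.

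The promoters were richer in CpG than most. The median number of CpG in the 2001-bp window was 94.5 for the members and 61 for all genes, and 34 of the 40 lay above the latter. The 8 genes with both calls had a median of 98.5 and the 28 with a call for H3K27me3 and none for H3K4me3, most of them untested for H3K4me3, 94.5, and Sox18 had 133. The 3 genes with neither call ranged from 16 (Neurod4) to 216 (Sox11), the lowest and the highest of the 40. Across the 40 genes, Spearman's rho was 0.03 between the CpG count and H3K27me3 and 0.30 between the CpG count and H3K4me3. Across all 21938 genes the values were 0.21 and 0.52. These describe genes that share libraries and are not independent replicates.

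H3K9me3 levels at these promoters were above the median gene and below the mean gene. The members' median was 0.593 and 0.572 CPM in KO and 0.488 and 0.399 in WT, where the median of all genes was 0.148 to 0.200 and the mean of all genes 3.15 to 4.28, and the members' mean was 0.424 to 0.689. Of the members, 5 stood in the top 10% of all genes by mean H3K9me3 and 0 in the top 5%. No member of the 27 tested was called above IgG (limma-voom; 22 had an unadjusted p under 0.05, each with less H3K9me3 than IgG, a direction that was not read, and limma-trend also called 0 higher), and 0.477% of 4611 genes were. This comparison had little power to call a gene higher, so the count of 0 does not show that H3K9me3 was absent. When every deposited fragment was counted, the members' median log2 against IgG was -0.13 with 14 of 34 above 0, in place of -1.95 with 0 of 27. Olig2 had the most of the bHLH genes with 1.78, 2.48, 1.46 and 0.599, Sox14 the most of the Sox genes with 2.96, 0.954, 1.14 and 0.998, and Tbx5 the most of the T-box genes with 1.48, 2.10, 0.650 and 0.599. These 3 genes also had the highest H3K27me3 of their families. Eomes came next among the T-box genes with 1.33, 1.15, 0.976 and 0.399, Sox8 among the Sox genes with 1.04, 1.33, 1.30 and 0.998 and Myf5 among the bHLH genes with 0.593, 0.572, 1.30 and 0.599. Of the Gata genes, Gata6 was highest with 0.741, 1.15, 1.14 and 0.200, followed by Gata3 with 0.593, 1.15, 0.650 and 0.399, and Gata2 was lowest with 0.445, 0.763, 0.325 and 0.599. Across the 40 genes, Spearman's rho between mean H3K9me3 and mean H3K27me3 was 0.85, and across all genes it was 0.25. The counts behind H3K9me3 were small, 85 to 186 fragments in a library over all 40 windows, and whether the signal came from H3K9me3 itself was not tested. The lowest of the other families were Sox11 with 0, 1, 0 and 1 fragments, Tbx6 with 3, 1, 0 and 0 and Olig3 with 0, 1, 2 and 2.

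Over gene bodies, levels are in CPM per kb of gene, so that genes of different length can be compared. H3K27me3 exceeded IgG at 36 of 39 gene bodies tested, where 28.9% of 15142 genes were called, and Sox14 (33.5 ± 5.92 per kb, SD, n = 4), Myod1 (29.3 ± 5.16) and Hand2, a factor of heart and limb (26.8 ± 6.32) were highest. Sox6, Sox18 and Neurod4 were not called, and Tbx6 had too few fragments. Sox6 is a long gene of which the promoter is a small part, with 14.7 CPM in its promoter window and 0.286 ± 0.0563 per kb over its body. H3K4me3 exceeded IgG at 10 of 30 bodies, where 44.7% of genes were called. These were Sox1, Sox7, Sox17, Sox18, Tbx1, Tbx5, Tbr1, Gata2, Gata3 and Hand1. Of these, Gata3 was tested at the promoter and not called. Sox7, Tbx5 and Tbr1 had too few fragments for a test there, and Sox7 and Tbr1 had 1 H3K4me3 fragment each in the promoter window. H3K9me3 exceeded IgG at 0 of 35 bodies in limma-voom and in limma-trend (18 had an unadjusted p under 0.05, each with less H3K9me3 than IgG, a direction that was not read), and 5.2% of genes were called. The members' median log2 was -1.34, with 1 of 35 above 0. It was 0.14 when every deposited fragment was counted (20 of 38 above 0) and 0.42 with median-of-ratios scaling (24 of 35), so its direction was not firm.

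Other genes of the same 4 families were compared in the same way. Of 46 such genes, 32 held enough fragments and 23 had more H3K27me3 than IgG at the promoter, and 10 of 23 tested had more H3K4me3, against 64.7% and 73.7% of all genes tested. H3K27me3 exceeded H3K4me3 at 27 of 39 and H3K4me3 exceeded H3K27me3 at 8, against 29% and 59.7% of all genes. Of 29 genes for Polycomb subunits, the proteins that place and bind H3K27me3, 21 of 26 tested had more H3K4me3 than IgG, 5 of 8 had more H3K27me3, and H3K4me3 exceeded H3K27me3 at 19 of 29, counts that lie near the same shares of all genes. The summed H3K27me3 of the 20 spermatid markers was 9.98 to 15.6 CPM, against 426 to 553 for the 12 T-box genes.

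Loss of H2A.B was compared with WT for each mark. No member was called in any of the 6 comparisons by limma-voom or by limma-trend, at promoters, where the numbers tested were 15 (H3K4me3), 40 (H3K27me3) and 26 (H3K9me3), or over gene bodies (30, 39 and 34), and 0% of all genes were called in each. With the sibling pair as a block there were still 0 members, while all genes gave 1 lower in KO for H3K27me3 at promoters and 38 higher and 7 lower for H3K9me3 over bodies. At an unadjusted p under 0.05 there was 1 member for H3K9me3 at promoters (Tbx5), 1 for H3K4me3 over bodies (Eomes) and 0 in the other 4 comparisons, against 399, 151 and 74 of all genes at promoters and 51, 7 and 97 over bodies (H3K4me3, H3K27me3 and H3K9me3). The members' median log2 KO against WT at promoters stood at 0.06 (H3K4me3), 0.04 (H3K27me3) and 0.39 (H3K9me3), and the medians over all genes tested were 0.17, -0.07 and 0.07. The direction of the first 2 was not firm: the H3K27me3 median was -0.15 with the replicate block, -0.18 with limma-trend and -0.25 without KO replicate 1, and the H3K4me3 median ran from -0.12 to 0.07 without 1 library. The H3K9me3 median ran from 0.20 to 0.74 without 1 library. A missed threshold with 2 libraries against 2 does not show that the levels were equal, and large differences could be missed too.

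For H3K27me3 the sibling pairs moved in opposite directions. With 0.5 added to each count, KO was higher than WT in pair 1 at 35 of the 40 promoters, with a median log2 difference of 0.21. In pair 2 KO was lower at 31 of 40, with a median of -0.44. The 31 include Tbx6, Sox11 and Neurod4, which had 1 fragment in KO and 0 in WT, so the added 0.5 set their sign. Of the 6492 genes tested, 59.1% were higher in KO in pair 1 (median 0.08) and 70.8% were lower in pair 2 (median -0.47), the same turn between the pairs. The added 0.5 weighs more in the shallower WT library of pair 2, so genes with few fragments lean to lower in KO there, among all genes too. Over gene bodies, 33 of the 39 members tested were higher in KO in pair 1 and 33 were lower in pair 2, against 49.8% and 61.4% of all genes tested. The H3K27me3 libraries of pair 2 were the shallow ones, and the part of depth in this was not tested. The 3 genes with the largest difference of one direction in both pairs were Sox18 (log2 0.69 ± 0.96 (SE), limma-voom adjusted p = 1), Sox21, a factor of neural progenitors and hair follicle (log2 0.45 ± 0.57 (SE), limma-voom adjusted p = 1), and Tbx18, a factor of the sinus node and ureter (log2 0.43 ± 0.56 (SE), limma-voom adjusted p = 1). Sox21 had 32.6, 37.9, 23.5 and 29.9, and KO and WT did not overlap, but the difference fell to 0.06 without WT replicate 1 and to 0.16 in a window of 2 kb on each side. Tbx18 had 52.5, 53.4, 40.8 and 29.9, with both KO values above both WT values and a difference of 0.08 in a window of 500 bp on each side. These genes were chosen for a like sign in both pairs, which favors groups that do not overlap. KO and WT did not overlap at 5 of the 40 members (12.5%) and at 14.9% of all genes tested, and 0% of genes were called. KO lay above WT at all 5 members, against 5.5% of all genes, and below WT at 0 members, against 9.41% of all genes. Whether the members differed from all genes in this was not tested. Sox18 had 16, 3, 9 and 0 fragments, and its direction turned to -0.55 in that window.

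**Figure D5:**
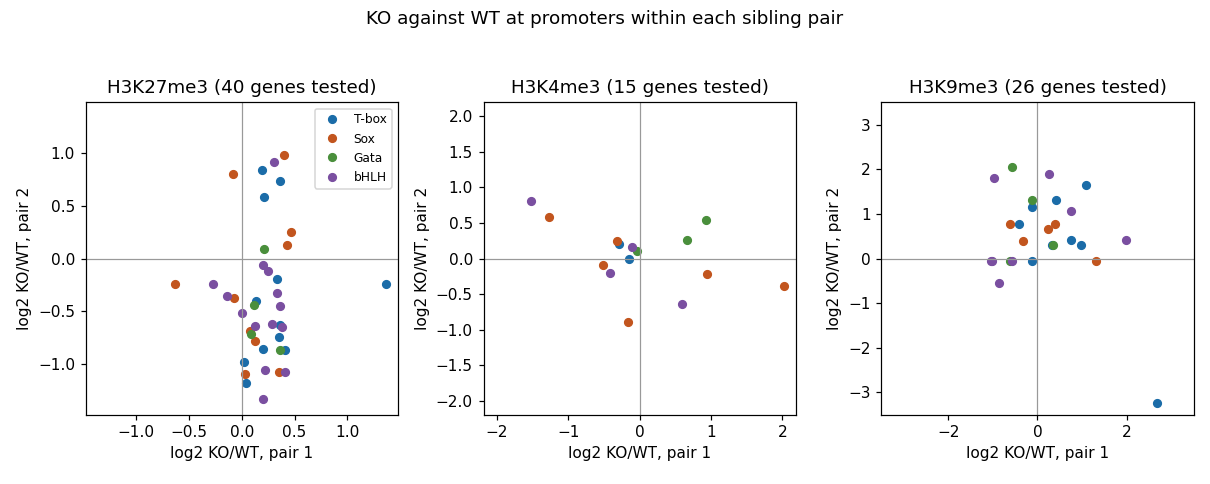
Log2 of KO over WT at promoters in sibling pair 1 (horizontal) and pair 2 (vertical) for the members tested for each mark, with 0.5 added to each count, colored by family. For H3K27me3 most of the 40 genes lie right of 0 in pair 1 and below 0 in pair 2, and for H3K4me3 and H3K9me3 the points lie on both sides of 0 in both pairs.

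For H3K4me3, Sox6, Gata5 and Gata3 had the largest differences of one direction in both pairs. Sox6, a factor of cartilage and muscle fibers, had 8.16, 5.89, 8.92 and 11 (log2 -0.67 ± 0.43 (SE), limma-voom adjusted p = 0.999) and both KO values lay below both WT values. Gata5 had 8.16, 6.19, 3.83 and 4.13 (log2 0.66 ± 0.54 (SE), limma-voom adjusted p = 0.999), and both KO values lay above both WT values. For this mark, KO and WT did not overlap at 3 of the 15 members tested and at 34.6% of all genes tested. KO lay above WT at 1 member and 27.8% of all genes, and below WT at 2 members and 6.75% of all genes. Gata3 had 6.68, 1.77, 3.83 and 1.38 (log2 0.40 ± 0.73 (SE), limma-voom adjusted p = 0.999), where the groups overlapped. Leaving out 1 library took the Gata3 difference to between -0.59 and 1.75, and narrowing the window turned Sox6 to 0.30 and took Gata5 to 1.19. Sox6 was at -0.33 without KO replicate 2, and Gata5 at 0.36 in a window of 2 kb on each side.

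For H3K9me3 the named genes were Myod1, Tbx5 and Olig2, all on few fragments. Tbx5 had 10, 11, 4 and 3 fragments (log2 1.34 ± 0.65 (SE), limma-voom adjusted p = 0.993), Olig2 had 12, 13, 9 and 3 (log2 1.01 ± 0.58 (SE), limma-voom adjusted p = 0.993) and Myod1 had 6, 3, 1 and 2 (log2 1.38 ± 1.47 (SE), limma-voom adjusted p = 0.993). In each of the 3, both KO levels lay above both WT levels, which the choice of genes favors. KO and WT did not overlap at 11 of the 26 members tested and at 28.8% of all genes tested, and 0% of genes were called. KO lay above WT at 8 members and 16.3% of all genes, and below WT at 3 members and 12.5% of all genes. The Olig2 difference was 1.62 without WT replicate 1, 0.48 without WT replicate 2 and 0.33 in a window of 2 kb on each side. In that window the Myod1 difference was -0.052, and it was 0.74 without WT replicate 1. The Tbx5 difference was 0.58 in a window of 500 bp on each side. Over gene bodies, Eomes had less H3K4me3 in KO in both pairs (-1.86 in pair 1 and -1.38 in pair 2, log2 -1.52 ± 0.64 (SE), limma-voom adjusted p = 0.9999). It was named for its unadjusted p, a choice that favors a like sign in both pairs. For H3K4me3 bodies, KO and WT did not overlap at 7 of the 30 members tested and at 22.25% of all genes tested. KO lay above WT at 4 members and 14.5% of all genes, and below WT at 3 members and 7.78% of all genes.

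The length of the released fragments was the study's own readout of KO chromatin, since fragments of at most 120 bp (small) are shorter than the DNA of a whole nucleosome and those of at least 150 bp (large) can hold one. For H3K4me3 at the 40 promoters, 52 small and 96 large fragments were counted in KO replicate 1, 104 and 231 in KO replicate 2, 16 and 71 in WT replicate 1 and 37 and 177 in WT replicate 2. The log2 ratio of small to large was -0.88 and -1.15 in KO and -2.12 and -2.24 in WT, so that KO lay above WT by 1.17 in the mean, 1.24 in pair 1 and 1.10 in pair 2, with an SD of 0.149 between replicates. Over all protein-coding promoters the same difference was 0.81, with 0.68 and 0.94 in the pairs. The groups did not overlap, and the smallest two-sided p that an exact permutation test of 2 against 2 can give is 0.333. Whether the members differed from all promoters was not tested.

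For H3K27me3 the ratio at the members was -2.53 and -1.79 in KO and -3.27 and -2.60 in WT, a difference of 0.77 with an SD of 0.50 between replicates, and 0.75 over all promoters. Leaving out 1 library took it to between 0.41 (without KO replicate 2) and 1.14 (without KO replicate 1), and it was 0.44 without WT replicate 1. KO was higher in both pairs, by 0.74 and 0.81, and the groups did not overlap, though the lower KO value and the higher WT value lay close. For H3K9me3 the difference was 0.23, with 0.28 in pair 1 and 0.18 in pair 2, and it was 0.15 over all promoters, with 0.18 and 0.11 in the pairs. KO was higher in both pairs, while the SD between replicates was 1.05 and the groups overlapped. The members' ratios rest on few small fragments, 13 and 23 in KO and 8 and 13 in WT. The sign of the difference turned in some cases where 1 library was left out, which broke a pair. IgG had 0 large fragments in either WT library at these promoters and 9 and 3 in KO, too few for a ratio to be read. Over all protein-coding promoters the IgG ratio was -0.82 and -0.96 in KO and -1.12 and -1.34 in WT. That difference was 0.34, with 0.30 in pair 1 and 0.37 in pair 2 and an SD of 0.129 between replicates. The groups did not overlap, so small fragments rose in the control too. Whether the marks differed from IgG in this was not tested.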

How the data were processed

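The authors aligned paired reads of 25 bases to mm10 with Bowtie2 (version 2.3.4.3 in the submitters' processing notes) and deposited 1 list of mapped fragments per library, with chromosome, start, end and length in bp. Duplicates were described as removed, yet 33.6% to 83.4% of the fragments of a library repeated the coordinates of another, so each distinct fragment was counted once. Fragments were not molecule-tagged, and intervals cover counting error only. Midpoints were counted in GENCODE promoters and bodies. limma 3.58.1 (voom, library totals, R 4.3.3) was fitted across all protein-coding genes with at least 10 fragments over the libraries of a fit, with Benjamini-Hochberg adjustment at 0.05. Calls of less mark than IgG were not read, since IgG was shallow and such calls were unreliable in simulated data. The replicate numbers were read as sibling pairs, which the labels do not state. Deviations of same-numbered libraries correlated at 0.242, 0.298, 0.196 and 0.215 at promoters (H3K4me3, H3K27me3, H3K9me3 and IgG). Over bodies they correlated at 0.371, 0.585, 0.480 and 0.149. Pair and library code cannot be told apart in these values. The members and lists were chosen with earlier results of these data known. Any member could be named. Values in every library were given for the 2 highest and the lowest of each family for each mark, the 3 members with the largest KO difference of the same sign in both pairs, and the 3 highest and 3 lowest for H3K27me3 against H3K4me3. Alternatives changed the window, the filter, the scaling, the counting of repeats and the test, used the pairs as a block, and left out each replicate. The tests were tested on simulated data.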

Additional observations from a re-analysis of the deposited data

How the results depend on the processing

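Of the alternative values for counts and for fragment length ratios, 179 lay within 1.5 times the reported count or 1 SD between replicates of the reported ratio and 10 did not, where 87 of the 179 were counts of 0 against a reported 0 and say nothing of stability, and of those for single genes 100 kept their sign and 5 reversed. Members with more H3K4me3 than IgG at promoters numbered 9, or 3 in windows of 500 bp and 7 to 8 without 1 replicate. In windows of 500 bp, 7137 of 11792 genes tested were called, against 9503 of 12886 within 1 kb. Members with more H3K27me3 than H3K4me3 numbered 35, or 34 to 35 without 1 replicate and 0 when every deposited fragment was counted, where the median SE rose from 0.732 to 5.28. Members with more H3K4me3 numbered 1, or 0 with every deposited fragment, 6 with median-of-ratios scaling, 2 with a quasi-Poisson model, which was chosen after seeing the data, and 2 in windows of 500 bp. H3K9me3 exceeded IgG at 0 member bodies, or at 2 of 38 with every deposited fragment and 2 of 35 with median-of-ratios scaling. All genes gave 927 of 17837, or 1226 of 19650 with every deposited fragment and 2058 of 17837 with median-of-ratios scaling. Of the KO differences, Sox6 (H3K4me3) turned to 0.30 and Sox18 (H3K27me3) to -0.55 in windows of 500 bp, Myod1 (H3K9me3) to -0.052 in windows of 2 kb, and Gata3 (H3K4me3) ran from -0.59 to 1.75 without 1 replicate. Without 1 replicate, the difference in small to large fragments ran from 0.41 to 1.14 for H3K27me3 and from -0.54 to 0.99 for H3K9me3, where its sign turned as a pair was broken, and that of IgG, which rests on the added 0.5 because the WT libraries held 0 large fragments and is not read, was computed as -3.71, as -5.27 with every deposited fragment and as -1.49 in windows of 2 kb. With the replicate block, the members called were 8 for H3K4me3 against IgG at promoters, 36 for H3K27me3 against IgG, 35 and 1 for H3K27me3 against H3K4me3 in the 2 directions, and 0 in the 6 comparisons of KO with WT. The causes of these shifts were not tested. Median-of-ratios scaling was not run for the 3 comparisons of a mark with IgG at promoters. With 2 libraries a group, and 200457 distinct fragments in the shallowest H3K27me3 library, differences between KO and WT, large ones included, may have been missed.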

Other observations

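Across the 40 promoters, Spearman's rho of H3K27me3 levels between the libraries of sibling pair 1 was 0.97, and between those of pair 2 it was 0.70. Between the KO libraries it was 0.75 and between the WT libraries 0.64. The share of deposited fragments at the members that repeated the coordinates of another ran from 63.0% to 85.8% in the H3K27me3 libraries, 48.9% to 88.8% in the H3K4me3 libraries and 11.8% to 48.9% in the H3K9me3 libraries. These correlations are across genes that share libraries and are descriptions only.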
